A study of Mus musculus with 4 samples.

Results

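The genes described here are 60 genes of the cell cycle and mitosis, followed in RNA from multicilia that had been purified from cultured mouse ependymal cells (mEPCs). They were taken by gene symbol from a list that was drawn up with the values of these libraries already known, so the difference between the siRNA groups is given for them as a description. Of the 60 genes, 45 had a row in the deposited table and 15 had none. The 45 genes took 49 of the 12515 transcript rows, and the whole table held 10212 gene symbols. Genes were grouped by the stage at which their products act, into G1 and G1/S cyclins and kinases, S phase and replication, G2/M, kinetochore and spindle, and chromatin.

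mEPCs are ependymal progenitors from the telencephalon of newborn C57BL/6 pups of either sex, which stop dividing and grow multiple motile cilia after serum is withdrawn. Both groups were mEPCs that received 40 pmol siRNA repeatedly until cilia were harvested at day 10 of starvation, a non-targeting siRNA in Ctrl-i and an siRNA against Fmr1 in Fmr-i1. Each of 2 independent experiments (Exp.1 and Exp.2) gave 1 Ctrl-i and 1 Fmr-i1 library, 4 libraries in all, made from poly(A) RNA. The study's methods speak of more replicates than the labels give, and whether a library pools some of them is not known. Multicilia were sheared off together with the apical cortex that bears them and purified on a gradient. The number of pups behind a culture is not given.

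Cyclins bind cyclin-dependent kinases and set the order of the cell cycle. D- and E-type cyclins drive cells out of G1, replication proteins copy DNA in S phase, Cdk1 with its cyclins starts mitosis, and the anaphase-promoting complex (APC/C) ends it by marking securin and the cyclins for destruction. Ependymal cells leave the cycle before they build cilia. Differentiating multiciliated cells nevertheless use part of the mitotic machinery, among it Cdk1, Plk1 and the APC/C, while they multiply their centrioles.

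Many promoters of cell cycle genes carry letters that other work has tied to their timed expression, and these sequences played no part in choosing the genes. Searched on both strands were the NF-Y box CCAAT, the cell cycle homology region (CHR) written as TTTGAA or TTCGAA, and the E2F letters TTGGCGC or TTCCCGC. The letters ATTGGCGC hold an NF-Y box and an E2F match in an overlap. The window ran from 250 bases before to 50 bases after the start of a gene in RefSeq (GRCm38.p6), and 49 of the 60 genes had such a promoter. Promoters that belong to the groups with the clearest split are shown here, with every match in capitals and the deposited transcript beginning at most 41 bases from the RefSeq start.
Cdk1: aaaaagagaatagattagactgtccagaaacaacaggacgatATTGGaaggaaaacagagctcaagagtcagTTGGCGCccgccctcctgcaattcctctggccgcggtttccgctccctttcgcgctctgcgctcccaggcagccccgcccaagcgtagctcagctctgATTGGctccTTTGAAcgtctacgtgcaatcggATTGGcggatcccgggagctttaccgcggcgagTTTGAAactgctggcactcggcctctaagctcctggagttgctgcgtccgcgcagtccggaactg
Top2a: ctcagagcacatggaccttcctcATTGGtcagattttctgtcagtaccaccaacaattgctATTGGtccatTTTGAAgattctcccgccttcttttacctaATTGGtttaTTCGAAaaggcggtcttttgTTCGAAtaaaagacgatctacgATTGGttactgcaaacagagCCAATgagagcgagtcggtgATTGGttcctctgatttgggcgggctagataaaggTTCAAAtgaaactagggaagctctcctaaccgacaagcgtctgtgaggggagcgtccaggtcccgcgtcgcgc
Racgap1: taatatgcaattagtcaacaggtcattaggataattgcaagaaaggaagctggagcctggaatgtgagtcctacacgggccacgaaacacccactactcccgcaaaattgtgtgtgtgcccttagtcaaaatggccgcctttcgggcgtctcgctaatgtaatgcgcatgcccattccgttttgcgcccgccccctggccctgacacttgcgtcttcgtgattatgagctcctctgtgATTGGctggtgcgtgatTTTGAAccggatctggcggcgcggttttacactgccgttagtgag
Mcm3: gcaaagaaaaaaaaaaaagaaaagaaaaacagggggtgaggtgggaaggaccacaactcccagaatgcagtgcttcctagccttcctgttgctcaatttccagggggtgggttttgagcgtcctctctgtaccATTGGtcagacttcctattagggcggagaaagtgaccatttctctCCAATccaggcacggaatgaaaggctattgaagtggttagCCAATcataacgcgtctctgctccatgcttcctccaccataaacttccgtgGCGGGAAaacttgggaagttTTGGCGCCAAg
Mcm6: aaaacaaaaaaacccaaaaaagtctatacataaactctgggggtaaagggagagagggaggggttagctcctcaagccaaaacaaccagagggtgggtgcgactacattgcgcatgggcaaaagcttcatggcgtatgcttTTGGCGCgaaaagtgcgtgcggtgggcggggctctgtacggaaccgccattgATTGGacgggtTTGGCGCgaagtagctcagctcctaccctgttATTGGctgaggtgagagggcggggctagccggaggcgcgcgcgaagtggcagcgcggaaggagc
The window of Cdk1 (chr10:69352863-69353162, minus strand) held 3 NF-Y boxes, 2 CHR matches and 1 E2F match. That of Top2a (chr11:99024140-99024439, minus strand) held 6 NF-Y boxes and several CHR matches, some of them the letters TTCGAA, which read the same on both strands. Racgap1 (chr15:99651607-99651906, minus strand) had 1 NF-Y box and 1 CHR match close to the start. Mcm3 (chr1:20820263-20820562, minus strand) and Mcm6 (chr1:128359656-128359955, minus strand) held NF-Y boxes and E2F matches and no CHR letters.

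Over all genes with a promoter in RefSeq (27025 genes), 41.1% had an NF-Y box, 21.7% a CHR match and 7.79% an E2F match. Among the 49 cell cycle genes the shares were 75.5%, 59.2% and 22.4%. CHR matches were found in 9 of 12 G2/M genes (75.0%) and 16 of 21 kinetochore and spindle genes (76.2%), but in 2 of 9 S phase genes (22.2%). E2F matches went the other way, with 5 of 9 S phase genes (55.6%), 3 of 12 G2/M genes and 1 of 21 kinetochore and spindle genes. By presence in the deposited table, 37 genes with a promoter had a row and 12 had none. A CHR match was present for 59.5% and 58.3% of them, an NF-Y box for 78.4% and 66.7%, and an E2F match for 18.9% and 33.3%. A CHR match was present for 60% of the 20 genes whose FPKM, after scaling, lay above the Ctrl-i range in each Fmr-i1 library, and for 58.8% of the 17 others. For these genes the shares were 85% and 70.6% for an NF-Y box and 20% and 17.6% for an E2F match, with no test. The promoter GC content of the cell cycle genes had a median of 60.5%, against 52.7% for all promoters. Some match was found in 41 of the 49 genes, and none in Pttg1, Ccne1, Cdk4, Tyms, Nusap1, Mad2l1, Birc5 and Tacc3. For Pttg1 the deposited transcript began 270 bases upstream of the RefSeq start, so the window lies inside that transcript. For Nusap1, Cdk4 and Tyms the transcript began 0, 1 and 39 bases from the RefSeq start, and for Pcna, which had an NF-Y box, 134 bases. All matches given here are of letters and are not sites of binding.

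**Figure D1:**
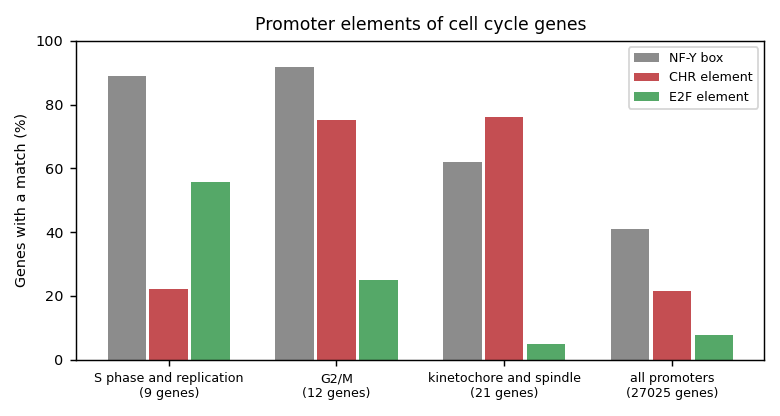
Share of genes (percent, vertical axis) whose promoter window holds an NF-Y box (grey), a CHR element (red) or an E2F element (green), for 9 S phase, 12 G2/M and 21 kinetochore and spindle genes and for the 27025 genes with a promoter in RefSeq. CHR bars stand at 75.0% and 76.2% in the mitotic groups and at 22.2% in the S phase group, and the E2F bar is tallest in the S phase group (55.6%).

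The targeted gene, Fmr1, had 0.42 and 8.13 FPKM in Ctrl-i (Exp.1 and Exp.2) and was listed at 0 in both Fmr-i1 libraries. FPKM are fragments scaled to a feature length and to library size, and the length behind them is not known here, so the order of FPKM between genes is uncertain. The median FPKM of a library, over rows above 0 in all 4, was 7.73 to 8.32 in Ctrl-i and 8.99 to 9.39 in Fmr-i1. Values are therefore also given as multiples of the library median, called scaled FPKM. Mitochondrially encoded RNA took 23.5% to 38.4% of all FPKM, the highest share in Ctrl-i of Exp.2. All 12 multiciliated ependyma markers had a row and summed to between 849 and 1291 FPKM, with overlapping groups. Astrocyte and radial glia markers (14 of 15) summed to between 6161 and 8256 FPKM, and in library medians to 992 and 797 for Ctrl-i against 790 and 760 for Fmr-i1. By gene, 5 of these 14 were below and 1 above in both Fmr-i1 libraries after scaling, where 18.9% and 16.9% of all symbols did so. S100b, named after its values were seen, had 91.7 and 126 FPKM in Ctrl-i and 50.8 and 52.6 FPKM in Fmr-i1. None of 11 microglia markers, among them Aif1, Cx3cr1 and Csf1r, had a row. Of 10 oligodendrocyte lineage markers 5 had a row (100.3 to 142 FPKM in sum), with none for Sox10 or Pdgfra, and of 10 neuronal markers 5 (75.6 to 98.2 FPKM), with none for Rbfox3 or Snap25. Of 7 endothelial markers only Kdr had a row, at 0.56 to 2.30 FPKM. Fibroblast and mural markers (5 of 9, most of the FPKM from Acta2) summed to 79.7 and 58.5 FPKM in Ctrl-i and 153 and 114 FPKM in Fmr-i1, while Col1a1, Col3a1, Dcn and Lum had no row. By gene, only Acta2 of these 5 was above in both Fmr-i1 libraries after scaling, and 0 were below, beside 16.9% and 18.9% of all symbols. Scaled neuronal sums were 11.8 and 11.6 library medians with the control siRNA, and 8.41 and 9.84 with the Fmr1 siRNA. After scaling, 3 of the 5 neuronal genes were below in both Fmr-i1 libraries and 0 above, beside 18.9% and 16.9% of all symbols. Where the cell cycle rows were higher, the Acta2-led sums were thus higher, and the scaled astrocyte and neuronal sums lower. As deposited, the astrocyte sums and the neuronal sums overlapped between the groups. The part of these markers in the values below was not tested.

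The cell cycle rows were read mostly at higher FPKM in Fmr-i1. They summed to 852 and 754 FPKM in Ctrl-i (Exp.1 and Exp.2) and to 1276 and 1227 FPKM in Fmr-i1, which is 0.146% and 0.128% against 0.226% and 0.228% of all FPKM. The ratio of the summed FPKM, Fmr-i1 over Ctrl-i, was 1.56 as deposited and 1.36 after scaling. As deposited, both Fmr-i1 libraries were above both Ctrl-i libraries in 30 of 49 cell cycle rows and below them in 0, where 25.3% and 11.9% of all rows did so. After scaling the counts were 26 above and 1 below, where 16.4% and 19.6% of all rows did so. By gene, with the scaled FPKM of its rows summed, 24 of 45 were above and 1 below, against 16.9% and 18.9% of all symbols. The rows were picked with this contrast in view, so nothing is read from these shares. In bulk RNA of this kind, a different number of cells and a different amount of RNA per cell cannot be told apart.

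No row of the table passed the test. In limma, fitted on log2(FPKM + 1) over 11898 rows with the experiment as a block, 0% of rows had an adjusted p under 0.05 for Fmr-i1 against Ctrl-i, and 0 of the 48 cell cycle rows in the fit did, with limma adjusted p between 0.752 and 0.997. At an unadjusted p under 0.05 the same fit had 9 cell cycle rows higher and 0 lower, and 363 rows higher and 235 lower over the whole table. The fitted log2 fold changes had a median of 0.65 over the 48 rows and 0.16 over all rows, or 0.51 and −0.01 after scaling. They were positive in 46 rows and negative in 2, Mcm4 and Pttg1. With 2 libraries against 2 and the pairing by experiment left aside, an exact permutation test of a single row cannot go below p = 0.333.

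**Figure D2:**
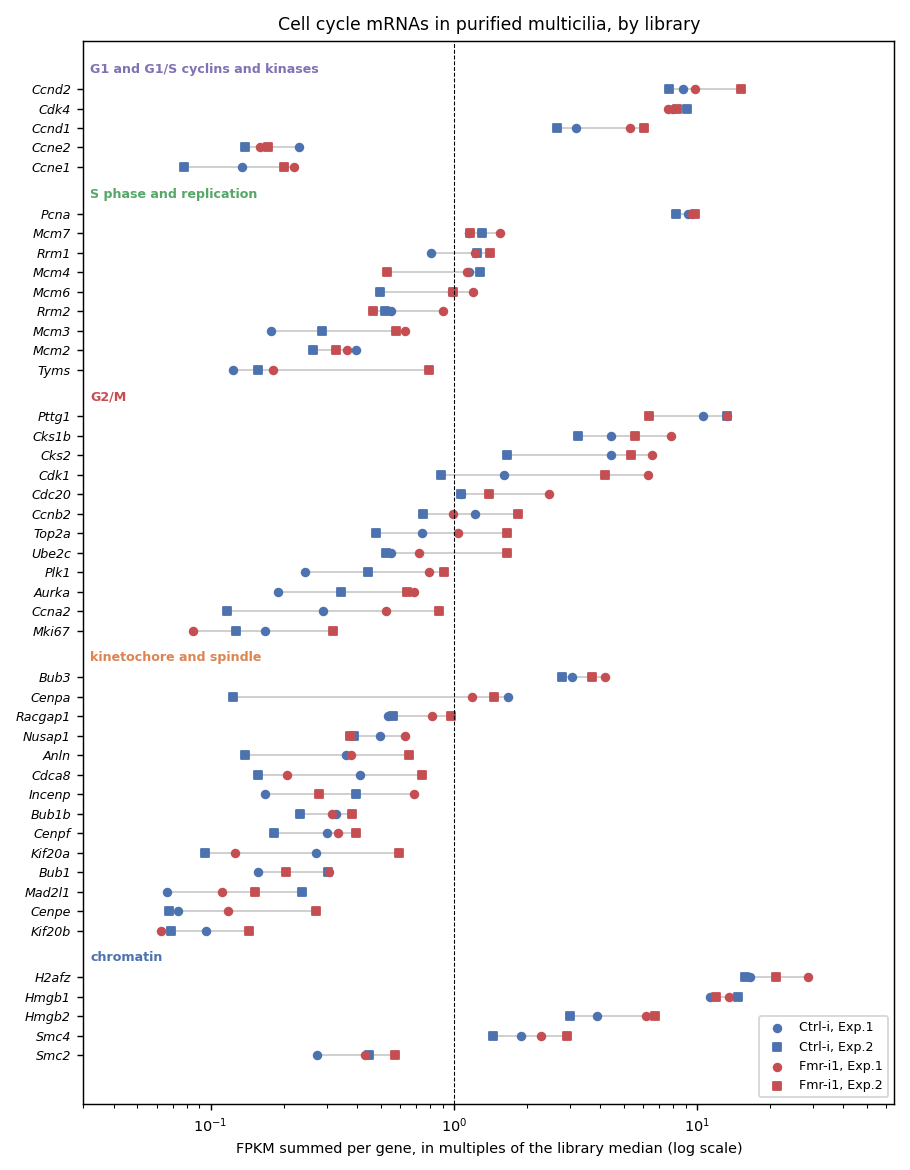
FPKM summed per gene and divided by the library median (horizontal axis, log scale, multiples of the library median; the dashed line is the median) for the 45 cell cycle genes, grouped by stage. Blue points are Ctrl-i and red points Fmr-i1, circles Exp.1 and squares Exp.2, and a grey line joins the lowest and the highest library; Cdk1 lies at 0.89 and 1.61 in Ctrl-i and at 4.18 and 6.28 in Fmr-i1.

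Cyclins and kinases of G1 ranged widely in FPKM, and the D-type cyclins Ccnd2 and Ccnd1 separated the groups. Ccnd2, a D-type cyclin, had 72.7 and 59.3 FPKM in Ctrl-i (Exp.1 and Exp.2, in this order throughout) and 88.8 and 143 FPKM in Fmr-i1. Ccnd1, its relative, had 26.4 and 20.6 FPKM in Ctrl-i and 47.9 and 56.8 FPKM in Fmr-i1. Neither gene overlapped between the groups, and the fitted log2 fold changes were 0.77 (SE 0.36) for Ccnd2 and 1.13 (SE 0.35) for Ccnd1. Cdk4, the kinase that both cyclins bind, was nearly level, with 66.2 and 70.4 FPKM in Ctrl-i and 68.6 and 77.5 FPKM in Fmr-i1. Its log2 fold change was 0.09 (SE 0.30) as deposited and −0.10 after scaling, so its sign followed the scaling. Ccne1, an E-type cyclin that acts at the start of S phase, was low, with 1.12 and 0.60 FPKM in Ctrl-i and 1.98 and 1.88 FPKM in Fmr-i1, and did not overlap. Ccne2, the other E-type cyclin, lay between 1.07 and 1.92 FPKM with overlapping groups. Cdk2, the partner of the E-type cyclins, had no row. Ccnd3, a D-type cyclin outside the chosen genes, is named after its values were seen. It had 26.4 and 28.1 FPKM in Ctrl-i and 22.5 and 27.9 FPKM in Fmr-i1. The groups overlapped as deposited, and after scaling both Fmr-i1 libraries were below both Ctrl-i libraries. In sum, 3 of 5 rows of the G1 group were above in both Fmr-i1 libraries, as deposited and after scaling. Over all rows, 25.3% were above as deposited and 16.4% after scaling.

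S phase genes had the lowest median log2 fold change of the groups, and Pcna, the sliding clamp of the replication fork, had the highest FPKM of them. It had 76.4 and 63.7 FPKM in Ctrl-i and 86.2 and 92.3 FPKM in Fmr-i1. The groups did not overlap, and the scaled values of 9.18 and 8.24 against 9.59 and 9.83 were close. Both subunits of ribonucleotide reductase, which makes deoxynucleotides, overlapped after scaling. Rrm1 had 6.68 and 9.60 FPKM in Ctrl-i and 11.0 and 13.3 FPKM in Fmr-i1, and Rrm2 ranged from 4.05 to 8.11 FPKM. Tyms, thymidylate synthase, was carried by a retained-intron transcript (Tyms-202). It had 1.03 and 1.21 FPKM in Ctrl-i and 1.62 and 7.41 FPKM in Fmr-i1. Only the Fmr-i1 library of Exp.2 stood far above the others, and the log2 fold change was 1.15 (SE 0.59).

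Subunits of the Mcm2-7 helicase, whose products unwind DNA as 1 complex, had fitted values of both signs, none past the threshold, and differences between subunits were not tested. Mcm3 had 1.47 and 2.23 FPKM in Ctrl-i and 5.65 and 5.45 FPKM in Fmr-i1, a log2 fold change of 1.21 (SE 0.50). Mcm6 had 8.22 and 3.85 FPKM in Ctrl-i and 10.8 and 9.37 FPKM in Fmr-i1, a log2 fold change of 0.73 (SE 0.48). Mcm4 had 9.63 and 9.89 FPKM in Ctrl-i and 10.2 and 4.98 FPKM in Fmr-i1. After scaling it was the only cell cycle gene with both Fmr-i1 libraries below both Ctrl-i libraries, and its fitted log2 fold change of −0.39 (SE 0.49) turned to 0.06 without the Fmr-i1 library of Exp.2. Mcm7 had 2 rows that overlap on chromosome 5, so the split of reads between them is uncertain. Summed, Mcm7 had 9.63 and 10.1 FPKM in Ctrl-i and 13.9 and 10.9 FPKM in Fmr-i1, and overlapped after scaling. Its shorter row, Mcm7-204, had 1.35 and 4.52 FPKM in Ctrl-i and 5.39 and 2.24 FPKM in Fmr-i1, with opposite directions in the 2 experiments. Mcm2 lay between 2.04 and 3.31 FPKM with overlapping groups, and Mcm5 had no row. Gmnn, which encodes geminin, the inhibitor of origin licensing, had none either. The log2 fold changes of the 10 S phase rows had a median of 0.37, or 0.21 after scaling. Of these rows, 6 were above in both Fmr-i1 libraries and 0 below as deposited, and 4 above and 1 below after scaling. Over all rows the shares were 25.3% and 11.9% as deposited, and 16.4% and 19.6% after scaling.

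G2/M genes had the highest median log2 fold change of the 5 groups, 1.18 over 13 rows, or 1.01 after scaling. Cdk1, the mitotic kinase whose promoter is printed above, led them. Its protein-coding row, Cdk1-202 (chr10:69338324-69352903, minus strand, 9 exons), had 8.68 and 3.24 FPKM in Ctrl-i and 38.2 and 24.5 FPKM in Fmr-i1. Its other row, Cdk1-204, is a retained-intron transcript inside the same gene, with 4.70 and 3.64 FPKM in Ctrl-i and 18.3 and 14.7 FPKM in Fmr-i1. Every Fmr-i1 value of both rows lay above every Ctrl-i value, and the rows share exons, so how reads were divided between them is uncertain. Summed over both rows, scaled FPKM of Cdk1 in Fmr-i1 was 3.90 times that in Ctrl-i in Exp.1 and 4.69 times in Exp.2. The fitted log2 fold change was 2.30 (SE 0.42, limma adjusted p = 0.752) for Cdk1-202 and 1.76 (SE 0.44, limma adjusted p = 0.928) for Cdk1-204.

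Cks1b and Cks2, small proteins that bind Cdk1 and help it act on its targets, had the next highest FPKM of these genes after Pttg1. Cks1b had 36.8 and 25.2 FPKM in Ctrl-i and 70.7 and 52.4 FPKM in Fmr-i1. Cks2 had 37.1 and 12.8 FPKM in Ctrl-i and 59.0 and 50.3 FPKM in Fmr-i1. The groups did not overlap for either gene, with log2 fold changes of 0.98 (SE 0.32) and 1.27 (SE 0.42). Of the mitotic cyclins, Ccna2 had 2.41 and 0.90 FPKM in Ctrl-i and 4.73 and 8.19 FPKM in Fmr-i1, without overlap. Ccnb2 had 10.2 and 5.80 FPKM in Ctrl-i and 8.89 and 17.2 FPKM in Fmr-i1, so it was lower in Fmr-i1 in Exp.1 and higher in Exp.2. Ccnb1, the main partner of Cdk1 at mitotic entry, had no row.

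The mitotic kinases Plk1 and Aurka were low and separated the groups. Plk1, which acts on centrosomes and at mitotic entry, had 2.03 and 3.43 FPKM in Ctrl-i and 7.14 and 8.55 FPKM in Fmr-i1. Aurka, the kinase of the centrosome and spindle poles, had 1.57 and 2.65 FPKM in Ctrl-i and 6.18 and 6.05 FPKM in Fmr-i1. Both had scaled FPKM over 1.5 times higher in Fmr-i1 in each experiment, with log2 fold changes of 1.27 (SE 0.49) and 1.22 (SE 0.50). Top2a, the topoisomerase that untangles sister chromatids, had 6.19 and 3.70 FPKM in Ctrl-i and 9.39 and 15.6 FPKM in Fmr-i1, and did not overlap.

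Genes of the exit from mitosis were divided. Cdc20, which activates the APC/C, had 8.91 and 8.25 FPKM in Ctrl-i and 22.2 and 13.1 FPKM in Fmr-i1. Ube2c, the ubiquitin-conjugating enzyme of the APC/C, had 4.61 and 4.08 FPKM in Ctrl-i and 6.49 and 15.6 FPKM in Fmr-i1. Neither overlapped between groups. Pttg1, securin, which the APC/C marks for destruction, had 88.5 and 103 FPKM in Ctrl-i and 119.7 and 59.96 FPKM in Fmr-i1. Its direction thus differed between experiments, and its log2 fold change of −0.17 (SE 0.39) became 0.33 without the Fmr-i1 library of Exp.2. Mki67, the proliferation marker Ki-67, lay between 0.76 and 2.99 FPKM and was both lowest and highest in Fmr-i1. In all, 10 of 13 G2/M rows were above in both Fmr-i1 libraries, as deposited and after scaling. Over all rows, 25.3% were above as deposited and 16.4% after scaling.

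Kinetochore and spindle genes were mostly low, with a median over rows of 1.41 to 3.53 FPKM in the 4 libraries. Bub3, a spindle checkpoint protein, had the highest FPKM, with 25.6 and 21.5 FPKM in Ctrl-i and 37.8 and 35.0 FPKM in Fmr-i1, without overlap (log2 fold change 0.61, SE 0.34). Racgap1, a subunit of centralspindlin, which acts in cytokinesis, had 4.46 and 4.37 FPKM in Ctrl-i and 7.29 and 9.19 FPKM in Fmr-i1. Anln, the contractile ring scaffold anillin, had 3.01 and 1.07 FPKM in Ctrl-i and 3.41 and 6.13 FPKM in Fmr-i1. Both were higher in each Fmr-i1 library, Anln by a narrow margin in Exp.1. Of the centromere proteins, Cenpf had 2.50 and 1.41 FPKM in Ctrl-i and 3.01 and 3.72 FPKM in Fmr-i1. Cenpe, a kinesin of the kinetochore, had 0.61 and 0.52 FPKM in Ctrl-i and 1.06 and 2.54 FPKM in Fmr-i1, close to the bottom of the table. Kif20a, a kinesin of the central spindle, had 2 rows on chromosome 18 with nearly the same values. Summed, Kif20a had 2.26 and 0.73 FPKM in Ctrl-i and 1.13 and 5.60 FPKM in Fmr-i1, so it was lower in Fmr-i1 in Exp.1 and higher in Exp.2.

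The other kinetochore and spindle genes overlapped between groups after scaling, Bub1b alone not as deposited. They were the checkpoint genes Bub1, Bub1b and Mad2l1, the chromosomal passenger genes Incenp and Cdca8, and Nusap1, Kif20b and Cenpa, and apart from Cenpa they lay between 0.53 and 6.96 FPKM. Cenpa, the centromeric histone, is singled out after its values were seen. It was read as a transcript subject to nonsense-mediated decay, with 13.9 and 0.96 FPKM in Ctrl-i and 10.7 and 13.8 FPKM in Fmr-i1. Only Ctrl-i of Exp.2 was low, and the log2 fold change of 1.29 had the largest SE of the cell cycle rows (0.84). Of the 15 genes with no row, 11 belonged here: Aurkb and Birc5, which complete the chromosomal passenger complex, Ttk, Ndc80, Kif11, Kif23, Kif2c, Tpx2, Tacc3, Prc1 and Ect2. After scaling, 5 of 15 rows were above in both Fmr-i1 libraries and 0 below, where 16.4% and 19.6% of all rows did so. The median log2 fold change was 0.60, or 0.44 scaled.

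Chromatin genes held the largest share of the cell cycle FPKM. H2afz, the histone variant H2A.Z, had the highest FPKM of all 45 genes, with 138 and 122 FPKM in Ctrl-i and 258 and 199.6 FPKM in Fmr-i1. Hmgb2, a chromatin protein of proliferating cells, had 32.3 and 23.3 FPKM in Ctrl-i and 55.4 and 63.3 FPKM in Fmr-i1. The groups did not overlap for either gene, with log2 fold changes of 0.80 (SE 0.28) and 1.08 (SE 0.35). Hmgb1, its relative that resting cells also make, had 94.7 and 114 FPKM in Ctrl-i and 122 and 112 FPKM in Fmr-i1, summed over 2 rows. It overlapped between the groups, and the fold change of its main row, Hmgb1-201, was 0.07 (SE 0.30) as deposited and −0.12 after scaling. Reads of Hmgb1 and H2afz are also uncertain because the genome holds processed copies of both. Of the condensin subunits, which compact chromosomes, Smc4 had 15.8 and 11.2 FPKM in Ctrl-i and 20.5 and 27.5 FPKM in Fmr-i1, without overlap. Smc2 lay between 2.27 and 5.39 FPKM and overlapped after scaling. Of the 6 chromatin rows, 5 were above in both Fmr-i1 libraries as deposited and 4 after scaling, and 0 were below. Over all rows, 25.3% were above as deposited and 16.4% after scaling.

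Summed by stage, the ratio of the pooled sums, Fmr-i1 over Ctrl-i, fell in the order G2/M, kinetochore and spindle, chromatin, G1 and S phase. This order did not hold within each experiment. G2/M rows summed to 25.6 and 22.9 library medians in Ctrl-i against 41.3 and 30.8 in Fmr-i1, a ratio of group sums of 1.49. Pttg1 alone held 10.6 and 13.3 library medians of the Ctrl-i sums, and 13.3 and 6.39 of the Fmr-i1 sums. Kinetochore and spindle rows had a ratio of 1.44, chromatin rows 1.36 and G1 rows 1.33. S phase rows summed to 14.5 and 13.8 library medians in Ctrl-i against 16.8 and 16.1 in Fmr-i1, a ratio of 1.16. Each of the 5 sums was higher in both Fmr-i1 libraries. In Exp.1 alone the scaled ratios were 1.61 for G2/M, 1.51 for chromatin, 1.18 for kinetochore and spindle, and 1.15 for both S phase and G1. In Exp.2 alone they were 1.81 for kinetochore and spindle, 1.52 for G1, 1.34 for G2/M, 1.23 for chromatin and 1.17 for S phase. As deposited, the G2/M sums had ratios of 1.74 in Exp.1 and 1.63 in Exp.2. The median ratio over G2/M rows went the other way, 1.92 in Exp.1 and 3.05 in Exp.2, so the sums leaned on Pttg1. No difference between stages was tested. As deposited the ratios were 1.69 for G2/M, 1.64 for kinetochore and spindle, 1.56 for chromatin, 1.53 for G1 and 1.33 for S phase.

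**Figure D3:**
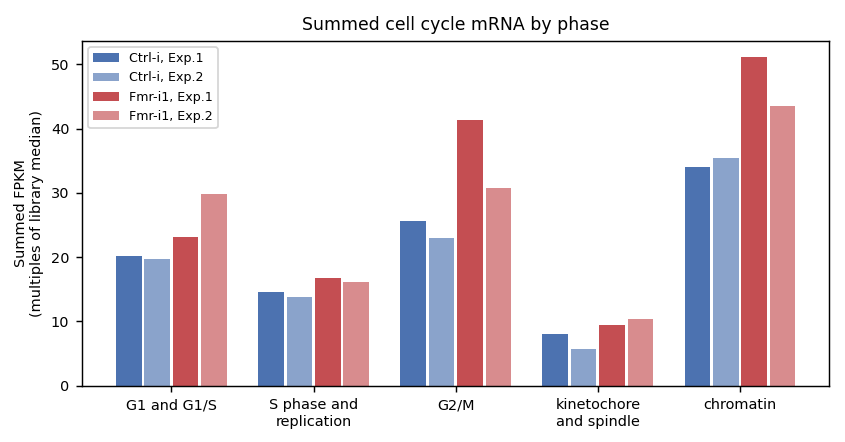
Scaled FPKM summed over the rows of each stage (vertical axis, multiples of the library median), 1 bar per library, with Ctrl-i in blue, Fmr-i1 in red and Exp.2 in the lighter shade. No bar is a mean, so there is no error bar; the G2/M bars stand at 25.6 and 22.9 for Ctrl-i against 41.3 and 30.8 for Fmr-i1, and the S phase bars lie between 13.8 and 16.8.

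The 2 experiments did not carry the difference equally. On log2(FPKM + 1), the median difference of the cell cycle rows between Fmr-i1 and Ctrl-i was 0.42 in Exp.1 and 0.96 in Exp.2, against 0.07 and 0.24 over all rows. Between the Ctrl-i libraries, Exp.2 was lower than Exp.1 by a median of −0.28 for cell cycle rows and −0.11 for all rows. Between the Fmr-i1 libraries the medians were 0.14 and 0.05. After scaling, the lowest of the 4 libraries was Ctrl-i of Exp.2 for 26 of 45 genes (57.8%), against 27.1% of the symbols above 0 in all libraries. Ctrl-i of Exp.1 was the lowest for 12 genes. The genes were chosen with the siRNA contrast in view, which favours a Ctrl-i library as the lowest, so nothing is read from these shares. Ctrl-i of Exp.2 also had the highest mitochondrial share, and the part of this in the values was not tested. Without that library the median log2 fold change of the cell cycle rows was 0.53 (all rows 0.08), and that of Cdk1-202 was 1.71.

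Direction within an experiment can be counted without pooling. As deposited, 33 of 49 rows were higher in Fmr-i1 in each experiment and 0 were lower in each, where 33.6% and 17.5% of all rows were. After scaling, 28 rows were higher in each and 2 lower in each, where 23.5% and 26.9% of all rows were. Rows over 1.5 times higher in each experiment numbered 18 as deposited, where 9.2% of all rows did so. Of the G2/M rows 10 of 13 were higher in each as deposited, and of the kinetochore and spindle rows 7 of 15, beside the 33.6% of all rows. The same fit compared Exp.2 with Exp.1, a contrast by which the genes were not chosen, and limma called 0% of rows and 0 cell cycle rows. The absolute log2 difference had a median of 0.24 over cell cycle rows for the experiments and 0.65 for the siRNAs. Over all rows these medians were 0.29 and 0.35. The genes were chosen with the siRNA contrast in view, which favours a larger value for the siRNAs, so nothing is read from this difference.

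**Figure D4:**
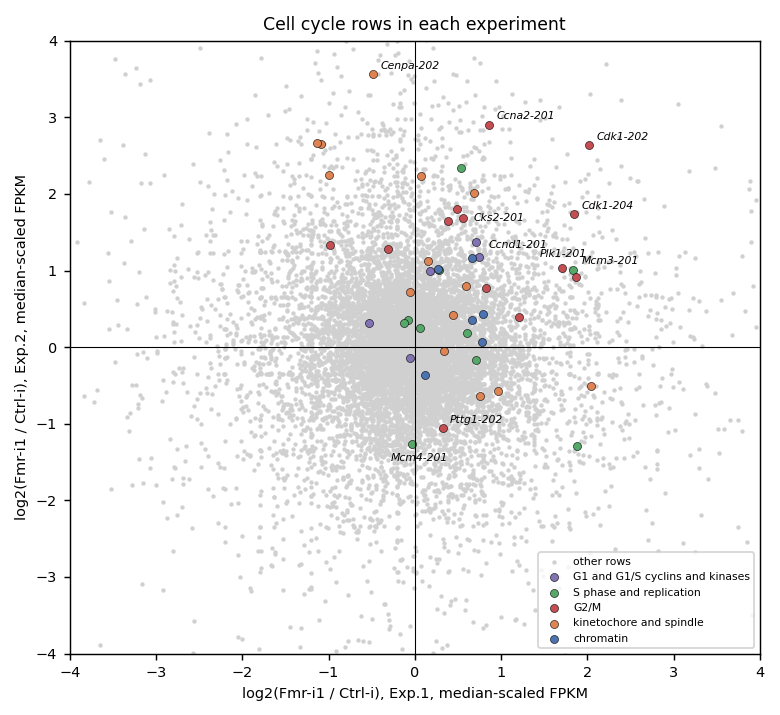
Log2 ratio of scaled FPKM, Fmr-i1 over Ctrl-i, in Exp.1 (horizontal axis) and Exp.2 (vertical axis), 1 point per row, with cell cycle rows coloured by stage and other rows in grey. Both Cdk1 rows lie far into the upper right, Cenpa-202 at the top near the vertical axis, and Mcm4-201 and Pttg1-202 below the horizontal line; 442 of 11840 rows fall outside the axes, which end at 4.

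Other cell cycle genes, from 8 lists, had rows on both sides after scaling, and most lists had other counts as deposited. Over all rows, 25.3% were above and 11.9% below as deposited, and 16.4% and 19.6% after scaling. The APC/C, whose activator Cdc20 and enzyme Ube2c are described above, had 15 of 16 core and regulator genes with a row. Of its 23 rows 4 were above and 4 below in both Fmr-i1 libraries as deposited, and 1 above and 5 below after scaling. Its median log2 fold change was 0.22 as deposited and 0.05 after scaling. Its genes of highest FPKM, Anapc11, Anapc13 and Cdc26, had summed log2 fold changes of −0.09, 0.35 and 0.32. Other cyclins, CDKs and their regulators had 2 of 11 rows above and 2 below as deposited, and 1 above and 3 below after scaling. Their median turned from 0.14 to −0.05 with the scaling. Ccng1, a cyclin induced by p53, had 123 and 128 FPKM in Ctrl-i and 100.4 and 107 FPKM in Fmr-i1. Ccnh and Mnat1, which with Cdk7 form the CDK-activating kinase, had log2 fold changes of −0.48 and −0.90. Cdk7, named after its values were seen, had 4.26 and 3.90 FPKM in Ctrl-i and 5.93 and 4.70 FPKM in Fmr-i1, a log2 fold change of 0.31, and overlapped after scaling. CDK inhibitors had 3 of 9 rows above and 0 below as deposited, and 3 above and 1 below after scaling (median 0.20, scaled 0.05). Cdkn1a, which encodes p21, had 42.7 and 41.9 FPKM in Ctrl-i and 65.3 and 77.3 FPKM in Fmr-i1, while Cdkn2b and Cdkn1b had log2 fold changes of −0.05 and −0.01.

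Replication genes outside the Mcm helicase were also mixed, and counts and medians of the lists that follow are given after scaling. Over all rows, 16.4% were above and 19.6% below. Fold changes of single genes are from FPKM summed per symbol without scaling, with a median of 0.16 over all fitted symbols. Origin licensing and firing genes (11 of 16 with a row) had 3 of 14 rows above and 1 below, with a median of 0.32 (0.45 as deposited). Their genes of highest FPKM, Gins4, Orc4 and Orc6, had log2 fold changes of 0.04, 0.32 and −0.16. DNA polymerases, the clamp loader and nucleotide synthesis (15 of 25) had 5 of 21 rows above and 2 below, with a median of 0.06 (0.22 as deposited). Rpa3, a subunit of the single-strand binding complex, and the DNA polymerase epsilon subunits Pole3 and Pole4 had 0.16, 0.16 and 0.14. Cohesin and condensin (11 of 14) had 4 of 14 rows above and 4 below, with a median of 0.04 (0.21 as deposited), and Rad21, Pds5a and Smc3 had 0.40, 0.32 and 0.49. Further kinetochore, chromosome and spindle genes (18 of 39) had 3 of 20 rows above and 1 below, with a median of 0.08 (0.24 as deposited), and Ckap5, Zwint and Cenpb had 0.03, 0.40 and 0.61. Limma called 0 rows in any of these lists.

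**Figure D5:**
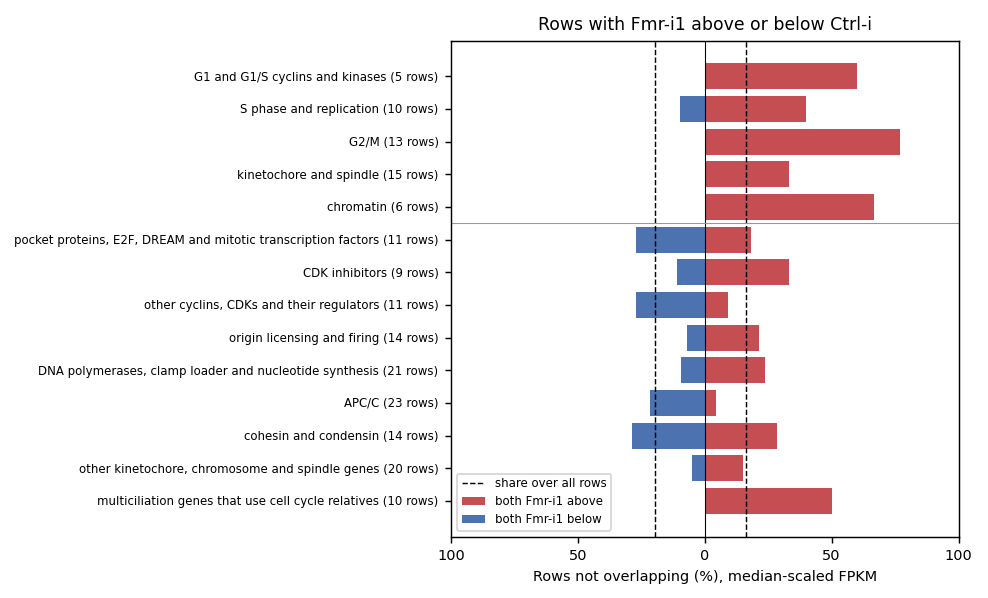
Percent of rows (horizontal axis) with both Fmr-i1 libraries above both Ctrl-i libraries (red, to the right) or below them (blue, to the left) in scaled FPKM, for the 5 groups of cell cycle genes (above the grey line) and 9 lists of other genes. Dashed lines mark the shares over all rows, 16.4% above and 19.6% below; the G2/M bar reaches 76.9% and the APC/C bar 4.35% to the right.

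Transcriptional regulators of cell cycle genes, and genes by which multiciliated cells adapt the cycle, were looked at last. Pocket proteins, E2F, the DREAM complex and mitotic transcription factors had 10 of 19 genes with a row, and E2f1, E2f2, E2f3, Mybl2 and Foxm1, activators of cell cycle genes, had none. Of their 11 rows 3 were above and 2 below as deposited, and 2 above and 3 below after scaling (median 0.46, scaled 0.29). Rb1, the retinoblastoma protein, Lin52, a DREAM subunit, and E2f5 had log2 fold changes of 0.58, −0.16 and −0.24. E2f4, an E2F that acts with Gmnc and Mcidas in multiciliated cells, is named after its values were seen, with 5.04 and 6.93 FPKM in Ctrl-i and 16.8 and 13.7 FPKM in Fmr-i1. Genes of the multiciliation program that are relatives or users of cell cycle factors included 8 of 10 with a row. After scaling they had 5 of 10 rows above and 0 below, with a median of 0.76 (0.92 as deposited). Over all rows, 16.4% were above and 19.6% below after scaling. Foxj1, the transcription factor of motile cilia, had 189 and 313 FPKM in Ctrl-i and 296 and 261 FPKM in Fmr-i1 and overlapped. Myb, a transcription factor of multiciliated progenitors, had 15.5 and 15.1 FPKM in Ctrl-i and 30.2 and 30.4 FPKM in Fmr-i1. Deup1, of the deuterosomes on which centrioles multiply, had 9.87 and 13.3 FPKM in Ctrl-i and 35.5 and 23.01 FPKM in Fmr-i1.

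A cyclin and a geminin relative of this program are also named after their values were seen. Ccna1, an A-type cyclin, had 0.89 and 1.15 FPKM in Ctrl-i and 14.2 and 6.31 FPKM in Fmr-i1, and its log2 fold change of 2.39 (SE 0.53) was close to that of Cdk1-202. Mcidas, the geminin relative multicilin, had 2.37 and 2.93 FPKM in Ctrl-i and 10.7 and 8.39 FPKM in Fmr-i1 (log2 fold change 1.52, SE 0.47). Neither overlapped between the groups, and neither passed the threshold in limma. Gmnc, Ccno and Trp73 overlapped after scaling.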

How the data were processed

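The authors deposited FPKM for transcript rows of 4 libraries, and nothing else was used. The paper names Cuffdiff for FPKM on GRCm38/mm10, whereas HISAT2 2.1.0 and featureCounts 1.5.3 stand in the submitters' processing notes, so the tool behind the values remains unclear. The length beside a row equals the genomic span of the transcript in 90.3% of annotated rows. The sources used here do not say whether FPKM used that length or whether counting used strand, so levels are best compared between libraries and not between genes. Read depth is unknown, and no counting error can be given.

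Rows were named by GENCODE M21. The siRNA groups were compared by limma 3.58.1 (R 4.3.3) on log2(FPKM + 1). The 11898 rows whose mean reached 1 FPKM were fitted, with experiment as a block and a variance trend, and p-values were adjusted over all of them by Benjamini-Hochberg at 0.05. Of the cell cycle rows only that of Kif20b fell under the minimum. On this scale, fold changes of low rows come out too small. Libraries of the same experiment are paired by the experiment number in the labels, which the paper calls independent experiments. Their deviations had a correlation of −0.08. Only 1 residual degree of freedom is left, and limma adds spread pooled over rows, so p-values measure only the spread between these libraries. Scaled FPKM were divided by the median FPKM of the library over rows above 0 in all 4. The fit was tested on simulated data.

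The genes and lists were chosen with earlier results of these data known. Values in every library are printed for genes with a summed mean of at least 10 FPKM, with several rows, or without overlap after scaling, and the others are given by range. Of each other list, up to 3 genes with the highest mean FPKM are named. Their log2 fold changes are from the fit on FPKM summed per symbol, and list medians are from the fit on rows. Alternatives were pseudocounts of 0.1 and 5 FPKM, no minimum or 5 FPKM, median scaling, quantile normalization, sums per symbol, no block, no variance trend and leaving out each library. Promoter sequences are from RefSeq (GRCm38.p6), and 11 genes had none there.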

Additional observations from a re-analysis of the deposited data

How the results depend on the processing

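Under all alternatives 0 cell cycle rows were called. Without the replicate block limma called 3 rows of the table, none of them a cell cycle row, and with sums per symbol it called 1 for Exp.2 against Exp.1. Leaving out each library gave a median log2 fold change of the cell cycle rows between 0.53 and 0.85, and the other alternatives gave 0.42 (pseudocount of 5 FPKM) to 0.82 (0.1 FPKM). Median scaling lowered the ratio of summed FPKM to 1.16 for S phase, 1.49 for G2/M, 1.36 for chromatin and 1.36 for all cell cycle rows. It moved the median of all rows from 0.16 to −0.01 and their share with a higher value in Fmr-i1 from 63.3% to 49.1%. Of 457 values of 36 named rows under an alternative, 446 kept direction and 11 turned, in 7 rows. Cdk4 turned to −0.10 with median scaling and −0.012 with quantile normalization, and Hmgb1-201 to −0.12 and −0.018. With a library left out, the lowest and highest values were −0.082 and 0.23 for Hmgb1-201, −0.13 and 1.15 for Kif20a-201, −0.12 and 1.16 for Kif20a-202, −0.85 and 0.059 for Mcm4, −0.28 and 0.95 for Mcm7-204, and −0.66 and 0.33 for Pttg1. The cause was not tested. The pairing by experiment gave 33 rows higher in each experiment, beside 30 without overlap.

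The limits are few libraries, unknown depth and 2 decimals, so how many reads stand behind a low row is unknown. A multicilia preparation includes apical cortex, and which compartment an RNA came from cannot be told apart.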
